A study of Homo sapiens with 10 samples.

Results

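The S100 genes S100A4, S100A6, S100A8, S100A9, S100A10 and S100A11 and the annexin gene ANXA2 were followed in human microglia grafted into mouse brain. These 7 genes, of 36601 human genes in the files, were taken as a fixed list by name, and their levels were read in cells with at least 1000 human UMIs (unique molecular identifiers, each counting 1 captured transcript) and at most 5% mouse UMIs that carried the hashtag of 1 mouse. Of 68217 barcodes, 49988 met this in the 26 mice used for comparisons. The list was chosen by name with earlier values of these data in view, above all the difference between Lecanemab and IgG1 in FIRE hosts, so the values of that comparison are given as a description without a test.

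S100 proteins are small calcium-binding proteins that mostly work as dimers, and annexins bind membrane phospholipids when calcium is present. S100A8 and S100A9 pair to form calprotectin, which is abundant in neutrophils and monocytes and can be released as a danger signal. S100A10 pairs with annexin A2 in a heterotetramer at the plasma membrane that binds plasminogen and links membranes to actin, while S100A4, S100A6 and S100A11 bind cytoskeletal proteins and annexins.

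The human cells came from the embryonic stem cell line WA09 (H9) and were differentiated to microglial precursors before grafting into newborn hosts. All hosts carried the App NL-G-F knock-in, which gives amyloid plaques, together with loss of Rag2 and Il2rg and a human CSF1 knock-in, so they lacked a mature adaptive immune system. FIRE hosts (App NL-G-F Csf1r ΔFIRE/ΔFIRE) also lacked an intronic Csf1r enhancer, a line from 1 founder that has no microglia of its own. Intact hosts (App NL-G-F) kept this enhancer. For an App NL-G-F cohort dosed at a later age and used for a phagocytosis assay, the study's methods describe depletion of mouse microglia before grafting. The CSF1 receptor inhibitor BLZ945 was used for it. Whether the intact hosts here were prepared in the same way is not stated. From 4 months of age, mice of both sexes received 10 mg/kg of Lecanemab, an antibody against aggregated amyloid-β, or the control antibody IgG1 every week for 8 weeks by intraperitoneal injection, and CD11b+ hCD45+ cells were then sorted. The 4 groups were FIRE hosts with IgG1 (5 mice, 8224 cells), FIRE hosts with Lecanemab (6 mice, 12519 cells), intact hosts with IgG1 (8 mice, 15201 cells) and intact hosts with Lecanemab (7 mice, 14044 cells). A further intact mouse with IgG1, of 27 mice labelled in all, gave 1 cell and was left out. The study describes FIRE groups of equal size and more FIRE cells with IgG1 than are used here. The labels give 5 and 6 mice, so the host label of a mouse with IgG1 may be wrong, which would touch every value of both IgG1 groups. No mouse was moved, and this was not tested.

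Mice were hashtagged and pooled in 5 droplet libraries from 3 pools of mice, each with both hosts and both antibodies. Each mouse had between 871 and 3616 cells and between 3502274 and 12763974 human UMIs. Any 2 libraries shared between 14 and 49 barcodes, of which at most 7 carried the same mouse. Library 4 carries labels that contradict each other, and its mice were matched by name through library 5, and values without it are given below where they matter. The cells bore microglial markers throughout, with C1QA in 96.9% and CX3CR1 in 94.1% of cells. Of the defining neutrophil genes, MPO, ELANE, PRTN3, LTF and MMP8 had no UMI in any cell, and the monocyte genes VCAN and FCN1 were in 0.006% and 0.178% of cells.

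Levels are given as CPM, the UMIs of a gene in the summed cells of a mouse brought to a common total of human UMIs, with TMM scaling between mice. The 7 genes spanned levels from 0 to 2122 CPM. Over the 26 mice the median was 1152 CPM for S100A11, 24.8 for S100A4, 11.6 for S100A6, 7.46 for S100A9, 7.18 for ANXA2, 6.003 for S100A8 and 0.898 for S100A10. These reads come from transcript 3′ ends, so the levels are not divided by gene length. Over mice, S100A11 lay above every other member, and the ranges of neighbours in the rest of this order overlapped, so S100A9, ANXA2 and S100A8 in particular cannot be ranked. As a standard deviation on the log2 scale within groups and pools, S100A8 and S100A9 varied most between mice (1.55 and 1.55), then S100A10 (1.03), S100A4 (0.60), S100A6 (0.53) and ANXA2 (0.53), and S100A11 least (0.23).

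The 6 S100 genes lie in the S100 cluster of chromosome 1 (GRCh38, GENCODE 44) and ANXA2 on chromosome 15. S100A9 (chr1:153357854-153361023, plus strand) and S100A8 (chr1:153390032-153391073, minus strand) lie on opposite strands with S100A12 (chr1:153373711-153375621, minus strand) between them. S100A10 (chr1:151982915-151993859) and S100A11 (chr1:152032506-152047907) lie together on the minus strand, as do S100A6 (chr1:153534599-153536244) and S100A4 (chr1:153543613-153550136). ANXA2 spans chr15:60347134-60402883 on the minus strand. The annotation lists 8 pseudogenes of S100A11 and 3 of ANXA2, and 0 of them are features of the files. Reads that match such a copy therefore cannot be told apart here, and their effect on the levels was not tested.

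The 250 bases before the RefSeq start (GRCh38.p14) are shown for the calprotectin pair, whose levels moved together between mice, and for the partners S100A10 and ANXA2, whose levels did so less. Each reads from 5′ to 3′ towards the start site, and capitals mark a TATA box (TATAAA) or the C/EBP core (TTNNGNAA, a motif of myeloid transcription factors), searched on both strands.
S100A8: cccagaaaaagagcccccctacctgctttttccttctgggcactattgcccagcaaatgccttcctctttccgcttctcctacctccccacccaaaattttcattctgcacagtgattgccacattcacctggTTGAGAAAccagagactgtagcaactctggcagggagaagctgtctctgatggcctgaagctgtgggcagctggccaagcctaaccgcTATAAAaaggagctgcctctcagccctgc
S100A9: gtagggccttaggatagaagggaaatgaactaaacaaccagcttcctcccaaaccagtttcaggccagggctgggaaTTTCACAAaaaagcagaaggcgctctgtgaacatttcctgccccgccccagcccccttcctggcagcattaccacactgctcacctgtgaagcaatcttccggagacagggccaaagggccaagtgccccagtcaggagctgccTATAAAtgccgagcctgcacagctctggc
S100A10: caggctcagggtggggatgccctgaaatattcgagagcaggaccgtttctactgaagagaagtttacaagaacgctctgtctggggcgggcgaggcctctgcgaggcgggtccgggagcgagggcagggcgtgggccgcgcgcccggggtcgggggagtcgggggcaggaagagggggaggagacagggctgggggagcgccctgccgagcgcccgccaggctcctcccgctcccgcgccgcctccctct
ANXA2: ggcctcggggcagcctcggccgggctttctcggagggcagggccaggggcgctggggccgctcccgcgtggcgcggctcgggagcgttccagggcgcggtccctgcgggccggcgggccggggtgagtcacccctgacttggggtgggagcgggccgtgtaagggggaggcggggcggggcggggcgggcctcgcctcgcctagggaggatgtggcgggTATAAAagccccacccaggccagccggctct
These windows are chr1:153391074-153391323 (minus strand), chr1:153357604-153357853 (plus strand), chr1:151993860-151994109 (minus strand) and chr15:60397987-60398236 (minus strand). The S100A8 and S100A9 windows both held a TATA box at positions -29 to -24 counted from the start site and 1 C/EBP core each, at positions -117 to -110 and -173 to -166. The ANXA2 window held a TATA box at positions -31 to -26 and no C/EBP core, and the S100A10 window held neither. Of the members not shown, S100A4 held a TATA box at positions -31 to -26. C/EBP cores lay at -120 to -113 in S100A6 and at -248 to -241 and -33 to -26 in S100A11. Neither motif alone is particular to the pair. Of 35116 RefSeq windows of the same length, 10.7% held TATAAA and 33.2% held the C/EBP core. A match of letters is a description and does not show that a factor was bound.

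The calprotectin genes differed more between mice than any other member. In FIRE hosts with IgG1, S100A8 stood at 2.49 CPM in the pool 1 mouse, 5.47 and 6.54 in the pool 2 mice and 4.47 and 4.83 in the pool 3 mice. In FIRE hosts with Lecanemab it ran from 2.95 through a median of 18.1 to 191.5 CPM. The groups overlapped, with 4 of 6 Lecanemab mice above every IgG1 mouse and 6 of 6 above the IgG1 mean of their pool. S100A9 was at 2.57, 7.48, 12.3, 5.37 and 7.44 CPM in the same IgG1 mice and from 3.88 through 25.2 to 211.5 CPM after Lecanemab, with the same counts of 4 and 6 of 6 mice. The log2 difference, Lecanemab over IgG1, was 3.24 for S100A8 and 3.05 for S100A9. The mean after Lecanemab was 1.56, 3.11 and 15.6 times the IgG1 mean for S100A9 in pools 1, 2 and 3, and 1.55, 3.51 and 18.1 times for S100A8. Without the mouse AB93, the highest, both log2 differences were 2.12, and without library 4 they were 3.06 and 2.92.

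In intact hosts the calprotectin genes were high in 1 mouse with IgG1 and spread widely with Lecanemab. S100A8 ran from 1.45 through 2.77 to 113.9 CPM with IgG1 and from 2.83 through 22.5 to 118.8 CPM with Lecanemab. S100A9 ran from 1.82 through 4.33 to 146.0 CPM and from 3.05 through 33.1 to 206.9 CPM. The highest IgG1 mouse, AB38, stood apart from the other 7, whose S100A8 and S100A9 stayed at or below 7.09 and 6.94 CPM. Of the 7 Lecanemab mice, 5 lay above 7.09 CPM for S100A8 and 6 above 6.94 CPM for S100A9, 1 lay above AB38 for each gene, and 5 lay above the IgG1 mean of their pool for both. The log2 difference, Lecanemab over IgG1, was 1.31 (standard error, SE, 0.81) for S100A8 and 1.59 (SE 0.79) for S100A9. Neither passed (edgeR quasi-likelihood test, adjusted p = 1.000 for both). Without AB38 they were 2.72 and 2.98. The smallest adjusted p with any 1 mouse left out was 0.592 for S100A8 and 0.450 for S100A9 (edgeR). The ratio of means for S100A9 was 4.33 in pool 1, 0.525 in pool 2, which holds AB38, and 23.0 in pool 3. Whether the antibody's difference was itself unlike in the 2 hosts was not tested.

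Under IgG1, S100A8 and S100A9 were lower in FIRE than in intact hosts by the fitted log2 differences of -2.10 (SE 1.08, adjusted p = 0.388, edgeR) and -1.94 (SE 1.02, adjusted p = 0.397), which did not pass. These rested on AB38, without which they were -0.21 and -0.030. Under Lecanemab the differences were -0.17 (SE 0.72) and -0.48 (SE 0.70), with adjusted p = 0.999 and 0.968. These contrasts reuse the mice of the comparisons above. The FIRE mice with IgG1 are the same low arm from which the list was chosen, so the host differences under IgG1 are not independent of that choice for any of the 7 genes.

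The mice with the most S100A9 were also among the more deeply read. The 5 highest, AB93, AB41, AB38, AB49 and AB92, came from every group but FIRE hosts with IgG1, had 68.0 to 211.5 CPM and a median of 3880 to 6003.5 UMIs per cell. In the other 21 mice S100A9 was at 1.82 to 39.7 CPM and the median depth 2783.5 to 4473.5. CPM is scaled by the total of a mouse, and the part that depth or cell quality had in these levels was not tested.

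**Figure D1:**
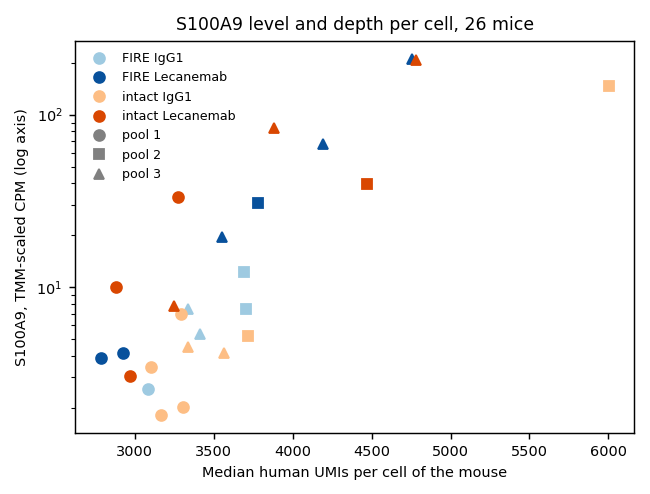
S100A9 level (TMM-scaled CPM, log axis) against the median human UMIs per cell of each of the 26 mice, coloured by group and shaped by pool. The 5 mice at 68.0 CPM or more have 3880 UMIs per cell or more.

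Few cells carried these transcripts. In the median mouse S100A8 had a UMI in 1.43% of cells (range 0.387 to 22.9%) and S100A9 in 1.75% (0.674 to 32.9%). With IgG1 the median share for S100A9 was 1.90% in FIRE and 1.22% in intact hosts, and with Lecanemab 5.65% and 5.30%. Thinned to 1000 UMIs per cell, the medians over all mice were 0.475% for S100A8 and 0.588% for S100A9. In 3236 barcodes of mouse host cells, which make no human mRNA and held a median of 77 human UMIs, 0.216% had human S100A8 and 0.433% human S100A9, against a median of 3429 human UMIs in the human cells. By library the background reached 0.482% for S100A8 in library 1 and 0.936% for S100A9 in library 2. The share was above these in 25 of 26 mice for S100A8 and 23 of 26 for S100A9, at unequal depths, so in the lowest mice of pool 1 the counts cannot be told from background.

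Mouse S100a8 and S100a9 were abundant in those host barcodes, at 597.3 and 670.0 CPM of their mouse UMIs. Summed over the human cells of all mice, mouse UMIs of these genes came to at most 0.802 CPM of the human UMIs. The lowest human levels in any single mouse were 1.45 CPM for S100A8 and 1.82 CPM for S100A9. The mouse genes were not read per mouse, and mouse reads counted as the human gene were not measured.

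S100A9 was found more often in cells with S100A8 than in cells without. Of 1779 cells with S100A8, 870 also had S100A9 (48.9%), against 3.14% of cells without S100A8. The S100A8 cells were deeper, with a median of 5752 against 3376 UMIs, and after thinning to 1000 UMIs the shares were 27.2% (153 of 562) and 1.30%. These pooled shares also hold the differences between mice. Within single mice the share was higher in cells with S100A8 in 25 of 26 mice, with a median of 19.4% (0 to 74.2%) against 1.68% (0.679 to 20.7%), and after thinning in 12 of 26 mice. A set of 236 cells held 10 or more UMIs of the pair, and 83 of them came from AB93, 45 from AB41 and 38 from AB38. They had a median of 8654 UMIs, against 3339 in cells with 0 UMIs of the pair. Their summed microglia identity list was 13712 CPM against 16685, the monocyte list 394.0 against 59.0 and the neutrophil list 173.6 against 383.7, of which CSF3R, also a microglial gene, was in 68.3% of all cells. Of the 236, 31.4% were among the cells high for interferon-induced genes, against 9.39% of cells with 0 UMIs of the pair, 25.4% against 9.64% for cytokine genes, 24.2% against 9.39% for plaque-response markers and 23.7% against 8.53% for proliferation genes. For MHC class II the shares were 8.47% and 9.82%, for border macrophage markers 2.12% and 10.3%, and for homeostatic markers 0% and 10.5%. The 236 cells were chosen by the UMIs of the pair and are deeper, so these shares are a description.

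**Figure D2:**
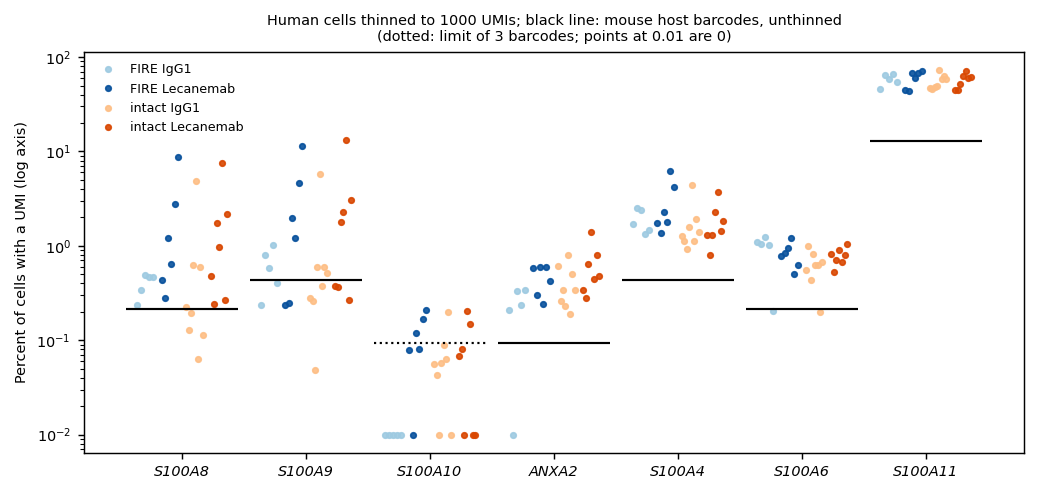
Percent of human cells with at least 1 UMI of each gene after thinning to 1000 UMIs per cell (log axis), 1 point per mouse, coloured by group, with points at 0.01 standing for 0. Black lines give the share in unthinned mouse host barcodes (median 77 human UMIs), dotted for S100A10, where 0 of 3236 allows up to 0.0927%.

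ANXA2, found in 1.51% of cells of the median mouse against 0.0927% of host barcodes, was low with IgG1 in every FIRE host and higher in most of those given Lecanemab. With IgG1 it was at 3.69, 4.03, 5.55, 4.70 and 3.90 CPM in the 5 mice, and with Lecanemab it ran from 3.798 through 8.88 to 14.3 CPM. Of the 6 Lecanemab mice, 5 lay above every IgG1 mouse, and AB92 lay among them. The log2 difference was 1.32 and ran from 1.01 to 1.51 as each mouse was left out. Ratios of means were 2.76, 2.56 and 1.67 in pools 1, 2 and 3, and the difference was 1.34 without library 4.

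In intact hosts ANXA2 ran from 5.07 through 7.41 to 18.2 CPM with IgG1 and from 5.09 through 9.30 to 33.8 CPM with Lecanemab. The log2 difference was 0.50 (SE 0.24, adjusted p = 1.000, edgeR) and did not pass, and without AB40, at 33.8 CPM, it was 0.18. The within-pool ratios were 1.18, 2.20 and 1.24. Under IgG1, ANXA2 was at a fitted log2 difference of -1.09 (SE 0.32) in FIRE against intact hosts, below the intact mean of the pool in 5 of 5 mice, with ratios of 0.593, 0.312 and 0.573 in pools 1, 2 and 3. This missed the threshold (adjusted p = 0.204, edgeR) and passed when fitted on the mice of these 2 groups alone or with no filter on low counts (adjusted p = 0.0262 and 9.07e-04). The 5 low mice are those from which the list was chosen, so neither p is independent of the choice. Under Lecanemab it was -0.27 (SE 0.26, adjusted p = 0.921) and was 0.0044 without AB40.

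S100A10, the partner of annexin A2, was close to the detection limit, with at most 32 UMIs in a mouse and 1.16% of cells. In FIRE hosts with IgG1 it was at 0.402, 0.288, 0, 0.671 and 1.12 CPM, and with Lecanemab it ran from 0.0775 through 1.25 to 3.40 CPM. The groups overlapped, and the log2 difference was 1.49, or 0.78 without AB13, the highest mouse, where 1 cell held 29 of 32 UMIs. In intact hosts it ran from 0 through 0.926 to 2.98 CPM and from 0.198 through 0.905 to 2.29 CPM, a log2 difference of 0.35 (SE 0.54, adjusted p = 1.000, edgeR). Host contrasts were -1.03 (SE 0.78, adjusted p = 0.569) under IgG1, or -0.56 without AB38, and 0.11 (SE 0.55, adjusted p = 0.999) under Lecanemab, or -0.66 without AB13. No human S100A10 was found in the 3236 host barcodes, which held a median of 77 human UMIs. S100A10 was at only 1.09 CPM in the summed human cells, so such shallow barcodes would be likely to hold none in any case. Their count of 0 allows a share of up to 0.0927%, against 0.256% over all human cells, at unequal depths. In single mice the share ran from 0 to 1.16%, so in the lowest mice S100A10 cannot be told from background. No difference in S100A10 passed in the 3 contrasts tested.

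ANXA2 was found more often in cells with a UMI of S100A10 than in cells without. Of 128 cells with S100A10, 29 had ANXA2 (22.7%), against 1.62% of cells without it, but the S100A10 cells were deeper (median 6112 against 3426 UMIs). After thinning, 3 of 29 (10.3%) against 0.426% remained, too few to rank. Within single mice the share was higher in cells with S100A10 in 17 of the 24 mice that had such cells, and after thinning in 3 of 15. ANXA2 was also found in 205 of 1438 cells with S100A6 (14.3%), against 1.30% of cells without, at median depths of 5159.5 and 3393 UMIs. Within single mice this share was higher in cells with S100A6 in 26 of 26 mice. After thinning, 21 of 390 cells with S100A6 had ANXA2, and the share was higher in 13 of 26 mice.

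**Figure D3:**
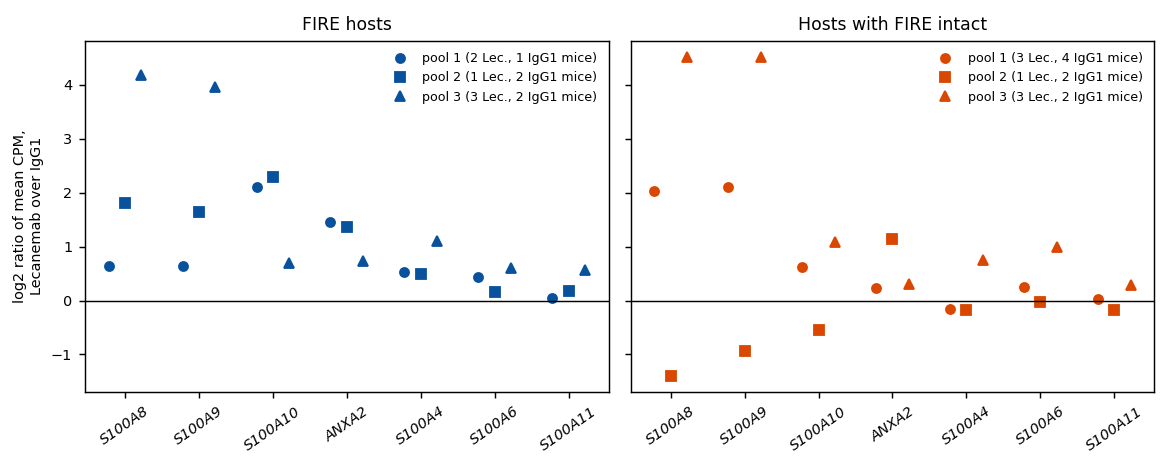
Log2 ratio of the mean CPM with Lecanemab over that with IgG1 within each pool, in FIRE hosts (left) and intact hosts (right), with the number of mice behind each mean in the key. In FIRE hosts every ratio lies above 0, and in intact hosts pool 2, with AB38, lies below 0 for every gene but ANXA2.

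S100A11 was the abundant member, with a UMI in 87.2% of cells of the median mouse (71.1 to 96.7%), or 58.8% after thinning, against 13.04% of host barcodes. Its level followed the pool, at a median of 758 CPM in pool 1, 1476 in pool 2 and 1227 in pool 3, and the pool 1 mice, at 676 to 998 CPM, did not overlap the pool 2 mice, at 1327 to 2122 CPM. Pool 1 differs from the others in its mice, its libraries and the Cell Ranger release in the file headers (6.0.1 against 6.1.2), which cannot be told apart. In FIRE hosts S100A11 was at 708, 1327, 1398, 1133 and 966 CPM with IgG1 and ran from 676 through 1393 to 1873 CPM with Lecanemab. The log2 difference was 0.35, with ratios of 1.03, 1.13 and 1.49 in pools 1, 2 and 3. In intact hosts it was 0.045 (SE 0.11, adjusted p = 1.000, edgeR). FIRE against intact hosts gave -0.26 (SE 0.12, adjusted p = 0.344) under IgG1, or -0.17 without AB38, and 0.037 (SE 0.12, adjusted p = 0.995) under Lecanemab.

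S100A4, which binds non-muscle myosin, had a UMI in 5.35% of cells of the median mouse and S100A6 in 2.75%, against 0.433% and 0.216% of host barcodes. S100A4 ran from 19.2 through 24.7 to 31.1 CPM in FIRE hosts with IgG1 and from 22.3 through 33.6 to 78.6 CPM with Lecanemab, where AB92 and AB93 were highest. The log2 difference was 0.94, with ratios of 1.43, 1.41 and 2.15 by pool. In intact hosts the medians were 23.3 and 26.4 CPM, and the log2 difference of 0.026 (SE 0.28, adjusted p = 1.000, edgeR) was 0.34 without AB38, whose 82.8 CPM was the highest of all mice. S100A6, a calcium sensor that binds the ubiquitin ligase partner CACYBP, ran from 5.02 through 13.3 to 15.3 CPM and from 8.20 through 14.2 to 25.0 CPM in FIRE hosts. This was a log2 difference of 0.46, or 0.26 without AB90. With the same number of cells drawn from each mouse it was -0.0036. In intact hosts S100A6 had a log2 difference of 0.37 (SE 0.23, adjusted p = 1.000). Between hosts, S100A4 and S100A6 differed by -0.39 (SE 0.32, adjusted p = 0.608) and 0.26 (SE 0.27, adjusted p = 0.688) under IgG1, and by 0.52 (SE 0.29, adjusted p = 0.797) and 0.35 (SE 0.24, adjusted p = 0.848) under Lecanemab (edgeR).

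Over all 13833 genes tested, edgeR called 0% between antibodies in FIRE hosts, 0% in intact hosts and 0% between hosts under IgG1. Under Lecanemab it called 3 genes between hosts (0.0217%). None of the 7 genes was among the calls. At an unadjusted p under 0.05, edgeR had 596 genes higher and 481 lower with Lecanemab in FIRE hosts, 310 and 339 in intact hosts, and 704 and 1207 in FIRE against intact hosts under IgG1. DESeq2 called 0, 2 and 5 genes in these 3 contrasts and 13 under Lecanemab. The median log2 difference of the 7 genes was 1.32 in FIRE hosts, where they were chosen, against 0.0038 for all genes, and 0.37 against -0.0042 in intact hosts, where all 7 were positive, S100A4 only just (it was -0.044 without library 4). For FIRE against intact hosts it was -1.03 under IgG1 and 0.037 under Lecanemab. The 7 genes are not independent of one another, as the pair S100A8 and S100A9 shows.

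Related genes were read from lists of the family and of binding partners. Of 14 other S100 genes, 4 passed the filter on low counts (S100A1, S100A13, S100B and S100Z), as did 6 of 11 other annexins and 20 of 25 receptors and partners, and 0 passed the test in any of the 4 contrasts (edgeR). Among partners the smallest p in FIRE hosts was that of VIM, the intermediate filament vimentin, at 15.6 CPM with Lecanemab against 5.63 with IgG1 (mean, log2 difference 1.71, SE 0.51, adjusted p = 0.611). Under IgG1, VIM stood at -1.76 (SE 0.49, adjusted p = 0.181) in FIRE against intact hosts. LMNA, a nuclear lamin, had 0.52 (SE 0.18, adjusted p = 1.000) in intact hosts with Lecanemab, and PLAU, a plasminogen activator, -0.55 (SE 0.22, adjusted p = 0.612) between hosts under Lecanemab. Of the S100 genes, S100A13 had -0.26 (SE 0.16, adjusted p = 0.676) in FIRE hosts and -0.45 (SE 0.14, adjusted p = 0.459) between hosts under Lecanemab. S100A1 had 0.68 (SE 0.41, adjusted p = 1.000) in intact hosts and -1.01 (SE 0.54, adjusted p = 0.401) between hosts under IgG1. Of the annexins, ANXA5 had 0.19 (SE 0.095, adjusted p = 0.644) in FIRE hosts and -0.20 (SE 0.090, adjusted p = 0.327) between hosts under IgG1, ANXA3 -0.20 (SE 0.29, adjusted p = 1.000) in intact hosts and ANXA7 -0.14 (SE 0.054, adjusted p = 0.574) between hosts under Lecanemab. The median log2 difference of the other annexins in FIRE hosts was -0.027, of the other S100 genes 0.23 and of the partners 0.029.

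The 7 genes differed in which microglial states carried them. Each cell was scored on 7 marker lists, and the top 10% of cells of a library were compared with the other cells of the same mouse by edgeR with the mouse as a block. Such a class is a range of a score, not a cell type, and its limit is a set share of cells, so it need not mark a gap in the score. None of the 7 genes is in a list.

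ANXA2 was concentrated in cells high for the plaque-response, or disease-associated microglia (DAM), markers such as SPP1, GPNMB and CD9. Its median was 38.6 CPM in these cells against 2.63 in the others and was higher in 26 of 26 mice (log2 difference 3.93, SE 0.12, adjusted p = 6.10e-37). These 10.0% of cells held 69.9% of ANXA2 UMIs and 55.7% of the cells with ANXA2, against 13.7% of all UMIs. All 7 genes rose in the DAM-high cells, where 24.4% of 13332 genes rose and 27.4% fell. S100A6 rose by 2.41 (SE 0.12, adjusted p = 2.69e-25), from 6.68 to 36.3 CPM, S100A10 by 1.75 (SE 0.31, adjusted p = 2.67e-06, higher in 18 of 26 mice, 69 UMIs) and S100A11 by 1.18 (SE 0.038, adjusted p = 2.63e-35), from 974 to 2155 CPM. S100A4, S100A8 and S100A9 rose by 0.92, 0.88 and 0.82. DAM-high cells had a median of 4474 UMIs against 3337.

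Within the DAM-high cells, ANXA2 had a median of 27.0 CPM in FIRE hosts with IgG1, 40.4 with Lecanemab, 47.3 in intact hosts with IgG1 and 38.0 with Lecanemab. In the other cells the medians were 1.66, 3.18, 2.22 and 4.23 CPM. The DAM-high share of cells was 6.43%, 8.11%, 10.2% and 11.9% in the same order, so the level per mouse reflects both the share of such cells and the level in them. These group values were not tested.

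S100A8 and S100A11 in the DAM-high cells, and S100A4 in the MHC class II-high cells, had group ranges that overlapped. S100A8 had a median of 11.1 CPM in the DAM-high cells of FIRE hosts with IgG1, 43.0 with Lecanemab, 7.94 in intact hosts with IgG1 and 49.9 with Lecanemab, and 4.07, 14.2, 2.06 and 11.3 CPM in the other cells, so the higher medians with Lecanemab were in both kinds of cell. S100A11 was at 2292, 2745, 1932 and 2113 CPM in DAM-high cells and at 991, 1173, 842 and 1006 CPM in the others. S100A4 in MHC class II-high cells was at 80.1, 118.0, 59.5 and 76.1 CPM, against 19.0, 24.1, 15.98 and 18.5 CPM in the others. These differences between groups within states were not tested.

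Cells high for homeostatic markers such as P2RY12 and TMEM119 had the opposite pattern. The 6 genes tested there fell, where 16.7% of 13185 genes fell and 12.2% rose. ANXA2 fell by 3.82 on the log2 scale (SE 0.26, adjusted p = 2.97e-26), with a median of 0 CPM against 8.39, and the others fell by 2.00 (S100A8), 1.90 (S100A9), 1.90 (S100A6), 1.66 (S100A4) and 0.63 (S100A11). S100A10 had 4 UMIs in all homeostatic-high cells and did not pass the filter.

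S100A4 was carried most by cells high for MHC class II genes. Its median there was 77.3 CPM against 18.8 and was higher in 26 of 26 mice (log2 difference 1.85, SE 0.0996, adjusted p = 6.03e-23), and 30.6% of its UMIs lay in these cells. S100A6, S100A11 and ANXA2 rose too, by 1.94, 0.64 and 1.97, where 17.5% of 13231 genes rose and 16.6% fell. S100A10 also passed (2.04, SE 0.42, adjusted p = 8.70e-05), but 2 cells, in AB13 and AB01, held 47 of its 83 UMIs there, it was higher in 13 of 26 mice, and its median was 0.464 CPM against 0.647 in the others. The calprotectin pair did not pass there, at -0.058 (SE 0.19, adjusted p = 0.856) for S100A8 and 0.23 (SE 0.19, adjusted p = 0.364) for S100A9, and with the top 20% of cells both passed (0.34 and 0.33, adjusted p = 0.0299 and 0.0225, edgeR). MHC class II-high cells had a median of 4213 UMIs against 3356, and a cell can be in several classes.

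The calprotectin pair rose in cells high for interferon-induced or cytokine genes. In interferon-high cells of the 23 mice with enough of them, S100A8 rose by 1.10 (SE 0.14, adjusted p = 8.12e-09, edgeR), S100A9 by 0.77, ANXA2 by 0.86 and S100A11 by 0.26. They were higher in 15, 17, 15 and 21 of the 23 mice. S100A4, S100A6 and S100A10 did not pass (-0.23, -0.012 and -0.39). Of 14291 genes, 5.44% rose and 8.35% fell. In cytokine-high cells S100A8 and S100A9 rose by 0.81 and 0.89 (SE 0.12 and 0.11, adjusted p = 5.09e-08 and 2.75e-10, edgeR), where 6.68% of 13393 genes rose and 7.07% fell. The pair was higher in 17 (S100A8) and 21 (S100A9) of 26 mice. ANXA2 fell there by 0.84 (SE 0.19, adjusted p = 6.02e-04) and S100A11 by 0.095, while S100A4, S100A6 and S100A10 did not pass (0.089, -0.049 and 0.32). The proliferating-high class held 4549 cells, 9.10% in place of 10%, with a median of 4562 UMIs against 3336. Its list genes were rare, from BIRC5 in 0.906% to NUSAP1 in 4.94% of all cells, so few UMIs can place a cell there. In proliferating-high cells S100A4, S100A8 and S100A9 rose by 0.29, 0.40 and 0.46 (higher in 15, 20 and 15 of 26 mice), where 13.6% of 12953 genes rose and 12.7% fell. S100A6, S100A11 and ANXA2 did not pass (0.0076, 0.0017 and 0.11). With the top 5% of cells S100A4 no longer passed (0.21, adjusted p = 0.210, edgeR) and S100A11 was lower (-0.22, adjusted p = 6.08e-06). In the FIRE hosts alone, which are fewer mice, S100A4 and S100A8 in proliferating-high cells (adjusted p = 0.345 and 0.0579, edgeR), ANXA2 in interferon-high cells (0.268) and ANXA2 and S100A11 in cytokine-high cells (0.266 and 0.704) did not pass.

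In cells high for border macrophage markers such as MRC1 and CD163, S100A4 and ANXA2 rose by 0.68 and 0.67, where 21.9% of 13296 genes rose. S100A10 passed too (1.22, SE 0.45, adjusted p = 0.0220, edgeR), with 29 of its 50 UMIs in 1 cell of AB13, and was higher in 9 of 26 mice, with a median of 0 CPM against 0.902. S100A8, S100A9 and S100A11 fell by 1.44, 0.76 and 0.83, where 27.2% fell, and S100A6 did not pass (0.17). With the top 20% of cells S100A4 and S100A10 no longer passed (0.15 and 0.43, adjusted p = 0.184 and 0.407, edgeR) and ANXA2 was at -0.21 in place of 0.67 (adjusted p = 0.319). With the top 5% S100A10 and S100A9 no longer passed (0.60 and -0.46, adjusted p = 0.310 and 0.0529).

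Across the 26 mice, with pool means subtracted, S100A8 and S100A9 had a Spearman correlation of 0.99. S100A11 had 0.81 with S100A8 and 0.82 with S100A9, and S100A4 had 0.69 and 0.71. ANXA2 had 0.51 with S100A11 and 0.41 with its partner S100A10, and S100A6 and S100A10 had -0.019. The mice share groups, libraries and depth within these values, so they are a description. Of 13826 other genes, the 3 most like S100A9 were VMP1 (0.89), RNASE2 (0.87) and PPA1 (0.86), and those most like S100A8 were VMP1 (0.87), LINC02513 (0.86) and SLC11A1 (0.86). The 3 most like S100A11 were DBI (0.94), SH3BGRL3 (0.93) and NEDD8 (0.93), and those most like ANXA2 were SLC35F2 (0.87), UGCG (0.82) and KPNA2 (0.81). For S100A4 they were MOSPD3, ANTKMT and LINC02611 (0.82, 0.81 and 0.80), for S100A6 MAX, CARMIL1 and CXCL12 (0.73, 0.71 and 0.71) and for S100A10 ZDHHC8, MPV17 and MDH1 (0.75, 0.73 and 0.72).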

How the data were processed

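Droplet libraries were made by the authors with 10x 3′ chemistry and cell hashing. The matrices deposited by the authors hold UMI counts, not normalized, for hashtags and for the genes of both species. Reads were aligned to GRCh38 and mm10 together with Cell Ranger (6.1.2 in the processing notes, 6.0.1 in the headers of libraries 1 and 2). Only called barcodes were deposited.

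Mice were called with HTODemux (Seurat 5.3.0, quantile 0.99) and given host and antibody from the labels. Human UMIs were summed per mouse with at least 50 cells, passed through filterByExpr, TMM-scaled and compared by the edgeR 4.0.16 quasi-likelihood test (R 4.3.3), all 4 groups in 1 fit with the pool as a block. The Benjamini-Hochberg adjustment ran over all genes, with a threshold of 0.05. Each SE is the size of the log2 difference divided by the square root of the F statistic of the edgeR test. It therefore restates that test and is rough for small differences. States needed 20 cells per mouse and class. Intervals of counts cover counting error only, and host barcodes at 0 allow 3 counts. Scripts were tested on simulated counts. Scrublet (scanpy 1.11.5) called at most 2 doublets per library, so it had not worked, and cells with the top 5% of its scores were left out in an alternative. DESeq2 1.42.0 was a further alternative. No value column was left unused (0).

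The members, lists and tests were chosen with earlier results of these data known. Besides the members, the text names, for each list and contrast, the gene of smallest p where none passed, and the 3 genes most correlated with each member.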

Additional observations from a re-analysis of the deposited data

Results flagged for a closer look

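Levels were examined for a mouse far from its group in 28 combinations of gene and group. Of these, 8 had a gap above the 95% critical value of Dixon's ratio (gap over range), taken on CPM and not on the log2 scale. For normally distributed levels about 1 in 20 would be flagged. Levels of these genes are skewed towards high values, so that rate does not apply here. A flag marks a distance in CPM only. AB38, an intact host with IgG1, was high for S100A9 (146.0 CPM, next 6.94, ratio 0.964), S100A8 (113.9 CPM, next 7.09, ratio 0.9499), S100A4 (82.8 CPM, next 24.8, ratio 0.820) and S100A10 (2.98 CPM, next 1.23, ratio 0.586). AB93, a FIRE host with Lecanemab, was high for S100A8 (191.5 CPM, next 46.4, ratio 0.770) and S100A9 (211.5 CPM, next 68.0, ratio 0.691). Among intact hosts with Lecanemab, AB41 was high for S100A9 (206.9 CPM, next 84.1, ratio 0.603) and AB40 for ANXA2 (33.8 CPM, next 11.7, ratio 0.770). The members are correlated, so the 8 are not separate events. AB38, AB93 and AB41 also gave 38, 83 and 45 of the 236 cells with 10 or more S100A8 and S100A9 UMIs.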

How the results depend on the processing

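Of 885 log2 differences of single genes recomputed under alternatives, 839 kept their sign and 46 did not, and of the 707 with a test 7 newly passed and 11 no longer did. No pairing by replicate number applied, since the mice carry no shared numbers. Removal of Scrublet calls was planned and not run. The cause of each change below was not tested.

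With no filter on low counts 75, 19, 281 and 113 genes were called between antibodies in FIRE hosts, between antibodies in intact hosts, and between hosts under IgG1 and under Lecanemab. S100A8 and S100A9 then passed under IgG1 (-2.11 and -1.94, adjusted p = 0.0381 and 0.0453, edgeR), as did ANXA2 (-1.10). With the mice of the 2 groups alone, the last 3 counts were 2, 36 and 0, and with DESeq2 2, 5 and 13. Between hosts under Lecanemab, 1 gene was called with library totals, without the pool term, with 2000 UMIs or without border macrophage-high cells. Under IgG1, 3 were called with limits of 2.5 median absolute deviations or a hashtag quantile of 0.95, and 1 without border macrophage-high cells or without the top 5% of Scrublet scores. Leaving out each mouse gave 0 to 1 genes in intact hosts, 0 to 1 under IgG1 and 2 to 4 under Lecanemab.

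S100A6 in FIRE hosts was at -0.0036 with equal cells. S100A4 in intact hosts was at -0.044 without library 4, -0.024 at a hashtag quantile of 0.95, -0.22 with equal cells, -0.080 without border macrophage-high cells and -0.096 without the 236 cells, and S100A10 was at -0.20 in the last. Between hosts under Lecanemab S100A8 was at 0.38 without the pool term and 0.099 with equal cells, S100A9 at 0.035 without the pool term and S100A10 at -0.76 without border macrophage-high cells. Leaving out each mouse gave -0.12 to 0.34 for S100A4 and -0.026 to 0.11 for S100A11 in intact hosts, and under Lecanemab -1.36 to 0.27 for S100A8, -1.46 to 0.14 for S100A9, -0.66 to 0.50 for S100A10, -0.064 to 0.10 for S100A11 and -0.60 to 0.0044 for ANXA2.

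Among states, FIRE hosts alone gave 2128 homeostatic, 743 interferon, 772 cytokine, 2532 MHC class II, 1378 proliferating and 3490 border macrophage calls. Signs turned with the top 20% of cells for S100A4 and S100A6 in interferon-high (0.092 and 0.16), S100A4 and S100A10 in cytokine-high (-0.079 and -0.028), S100A8 in MHC class II-high (0.34, adjusted p = 0.0299, edgeR) and S100A6 and ANXA2 in border macrophage-high cells (-0.30 and -0.21). They turned with the top 5% for S100A9 in MHC class II-high (-0.069) and S100A6, S100A11 and ANXA2 in proliferating-high cells (-0.092, -0.22 and -0.065). In FIRE hosts alone they turned for S100A6 in interferon-high, cytokine-high and proliferating-high (0.065, 0.12 and -0.34), S100A8 in MHC class II-high (0.080) and S100A11 in proliferating-high cells (-0.023).

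Shares of cells with a UMI were lower after thinning and at a higher limit. The medians for ANXA2, S100A6 and S100A11 were 0.340%, 0.791% and 58.8% after thinning, and 0.536%, 0.561% and 71.8% at 2 or more UMIs.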
